A study of Mus musculus with 6 samples.

Results

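A set of 41 genes that mark neurons by their cytoskeleton, synapses, transmitters, adhesion molecules and gene regulators were followed in mouse neural stem cells given miR-128. The members were named gene by gene, and each was represented by the array row of its RefSeq transcripts with the highest mean over all arrays. Every one of them had a row, of 20263 named genes in the table, and no member was removed by a filter on low values. They fall into 5 roles: 11 cytoskeletal genes, 8 genes of RNA-binding proteins and transcription factors, 9 synaptic genes, 9 genes of transmitter receptors, synthesis and transport, and 4 adhesion and guidance genes.

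Both groups were neural stem cells of CD-1 albino mouse embryos at stage E14.5, kept dividing as neurospheres, which are floating colonies of stem and progenitor cells. One group was nucleofected, that is, transfected by an electrical pulse, with a mimic of miR-128, a microRNA that these cells do not normally make according to the study's design text, and the other with a control RNA called miR-Control. After 72 h total RNA was extracted from 3 biological replicates per group, and each RNA was hybridised to an exon array. The study asked which genes and transcripts respond to miR-128 in these cells.

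A neuron's shape rests on microtubules and on neurofilaments, and its axon grows from a tip, the growth cone, in which proteins such as Gap43, Map1b and the stathmins act on the membrane and the microtubules. At the synapse, SNARE proteins fuse transmitter vesicles with the membrane, vesicular transporters fill those vesicles, and receptors across the cleft bind the transmitter. Dividing neural progenitors turn many of these genes on only as they leave the cell cycle, and miR-128 is known as a microRNA enriched in the brain and in neurons.

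The mature strand named miR-128-3p is shown, from RefSeq, as the natural molecule after which the mimic is named; the letters of the mimic itself were not given in the sources used here. Capitals mark the seed, bases 2 to 8, through which a microRNA pairs with its targets.
mmu-miR-128-3p: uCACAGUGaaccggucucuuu
The mouse genome (GRCm38.p6) holds 2 hairpin genes for it, Mir128-1 at chr1:128202361-128202430 on the plus strand and Mir128-2 at chr9:112118636-112118711 on the minus strand. Capitals mark the mature 3p strand, which is the same in both.
Mir128-1: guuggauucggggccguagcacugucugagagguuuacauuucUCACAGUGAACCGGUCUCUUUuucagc
Mir128-2: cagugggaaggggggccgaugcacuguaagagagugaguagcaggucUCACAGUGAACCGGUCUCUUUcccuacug

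The values are log2 expression values per transcript row, so a difference of 1 is a doubling. They have no common scale between genes, because probes differ in how strongly they bind, and whether a row lies above background is unknown. The median of an array lay between 7.45 and 7.49 in miR-128 and between 7.40 and 7.54 in miR-Control. The miR-Control replicate 3 array stood apart, with an interquartile range of 2.87 against 2.98 to 3.22 on the other arrays, and the results on the neuronal genes that moved most with it are also given without it. Without a common scale, levels cannot tell neural stem cells from other neural cells. The neuronal gene Map2 and the oligodendrocyte lineage gene Olig1 also had high means, 12.57 and 12.34. Of 10 marker genes of neural stem cells 9 had a mean above 7.46, that of the table's median row. The exception was Prom1, at 5.78 ± 0.10 in miR-128 and 5.85 ± 0.06 in miR-Control. Among the others the filament gene Vim had a level of 13.56 ± 0.03 in miR-128 and 13.57 ± 0.05 in miR-Control, the progenitor lipid-binding gene Fabp7 12.32 ± 0.04 in miR-128 and 12.61 ± 0.16 in miR-Control, and the stem cell factor Sox2 12.04 ± 0.33 in miR-128 and 11.94 ± 0.22 in miR-Control (SD, n = 3 each). In whole cultures such as these, fewer neurons and less RNA per neuron cannot be told apart.

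No neuronal gene passed the test. In limma, with Benjamini-Hochberg adjustment over all 32025 rows, 0 of 41 members had an adjusted p under 0.05, and neither did any other row (0% of all rows). The lowest adjusted p of a member was 0.488. At an unadjusted p under 0.05 there were 3 members, or 7.32%, all lower with miR-128, beside 7.15% of all rows (3.11% lower and 4.04% higher), so the share among the neuronal genes was close to that of the whole table. The sets are unlike: members have 1 row per gene, while shares of all rows, here and below, count every row, named or not. The 2 groups did not overlap in 3 of 41 members (7.32%), beside 11.9% of all rows. In these 3 every miR-128 array was lower (beside 4.87% of all rows), and in the row that stands for it no member had every miR-128 array higher (beside 6.98%). That count depends on the row taken: of all 61 rows of the members 4 (6.56%) had every miR-128 array higher, 1 row each of Mapt, Ncam1, Syn2 and Grin1. Of the members 23 had a positive and 18 a negative log2 fold change (56.1% positive, beside 56.8% of all rows), and the median was 0.02, as it was over all rows.

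The intervals describe the array values only. Whether a row lies above background is unknown, so a narrow interval does not bound the change of the transcript itself. The limma 95% interval of the log2 fold change lay within 1.5-fold in both directions for 36 of 41 members (87.8%, beside 84.4% of all rows). These were 20 of the 20 members at or below the level of the table's median row, and 16 of the 21 above it. The 5 exceptions were Mapt, Map1b, Gap43, Vamp2 and Nlgn1, whose intervals reached past that size on one side. These are the genes on which the rest of the account turns, together with Stmn3.

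**Figure D1:**
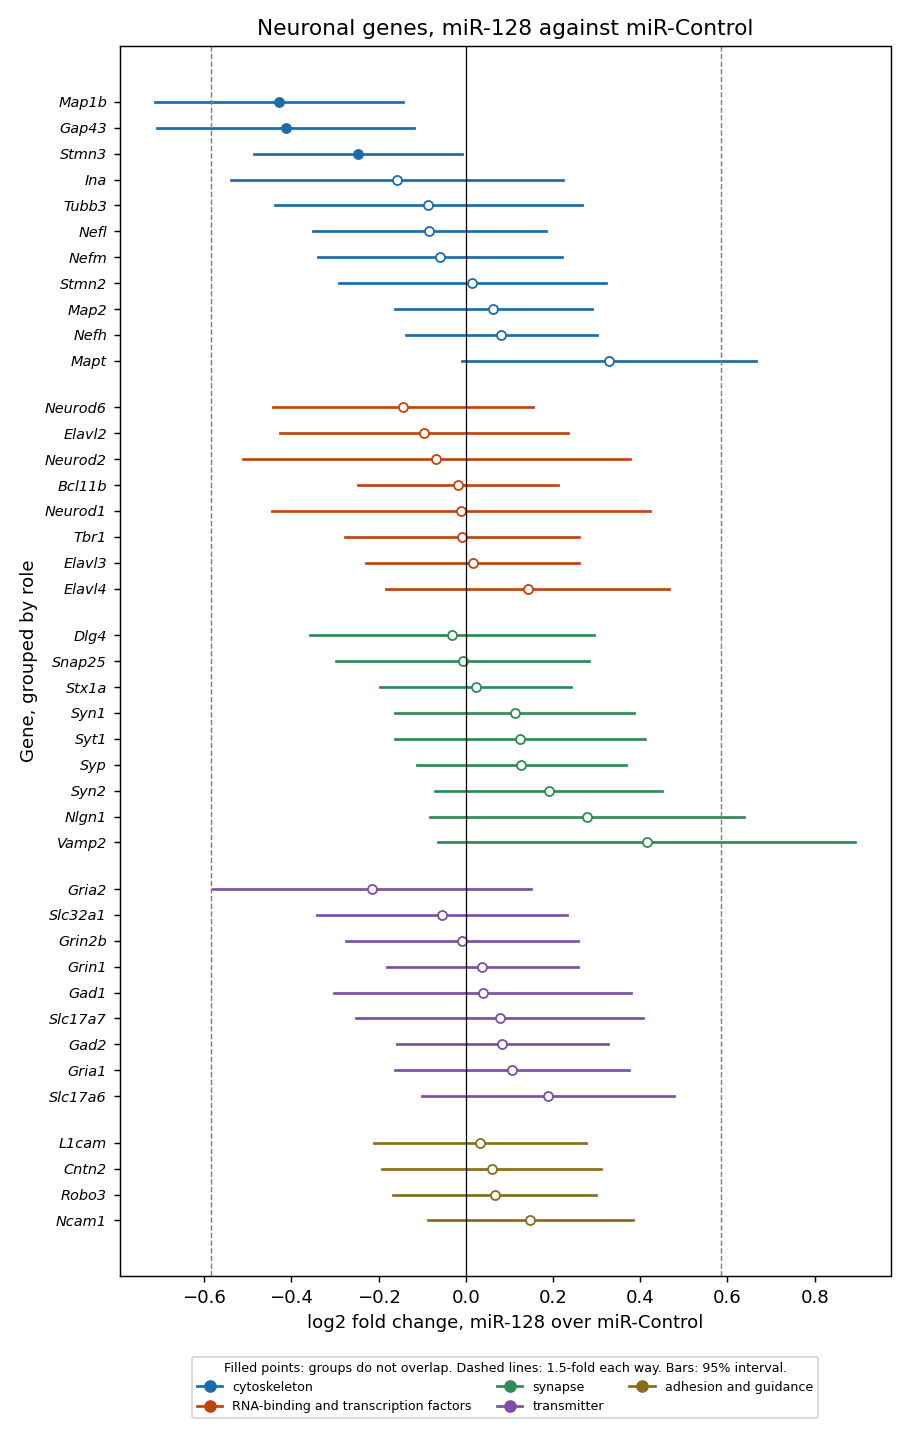
Log2 fold change (x axis, miR-128 over miR-Control) of the 41 neuronal genes in blocks by role, with limma's 95% interval as a bar; filled points are genes whose groups do not overlap. Only Map1b, Gap43 and Stmn3 have an interval below 0, and none has an interval above it.

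Among the cytoskeletal genes, 7 had lower and 4 had higher values with miR-128, beside 56.8% of all rows higher. Their median log2 fold change was -0.08, and 0.00119 without miR-Control replicate 3. The 3 genes of unadjusted p under 0.05 were all of this role. Map1b, which encodes a microtubule-associated protein of growing axons, had log2 levels of 9.56, 9.58 and 9.87 in miR-128 replicates 1 to 3, against 9.98, 10.24 and 10.07 in miR-Control replicates 1 to 3. The highest miR-128 array was lower than the lowest control. The difference amounted to a log2 fold change of -0.43 (SE 0.13, 95% interval -0.71 to -0.14), a 1.35-fold lower level, with an unadjusted p of 0.00784 and an adjusted p of 0.488 in limma. Map1b had an unadjusted p under 0.05 in all 14 fits made, the main one and 13 alternatives. Its log2 fold changes in them ran from -0.53 to -0.36 and its adjusted p from 0.156 to 0.9997. The fits reuse the same arrays, so they are not independent, and Map1b was the member of smallest p in the main fit. Counts of fits, here and for the genes below, are therefore descriptions and not further tests. How many of all rows kept such a p across the fits was not counted.

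Gap43, a membrane protein of the growth cone, had 9.08, 9.41 and 9.17 in miR-128, against 9.60, 9.80 and 9.50 in miR-Control. Again no array of one group reached the other, though the gap between the nearest arrays, miR-128 replicate 2 and miR-Control replicate 3, was small beside the range within each group. The log2 fold change was -0.41 (SE 0.13, 95% interval -0.71 to -0.12), with an unadjusted p of 0.0116 and an adjusted p of 0.532 in limma. It had an unadjusted p under 0.05 in 13 of 14 fits, with log2 fold changes from -0.51 to -0.33.

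Stmn3, a stathmin that binds tubulin and destabilises microtubules, had 8.96, 9.15 and 8.98 in miR-128, against 9.34, 9.30 and 9.20 in miR-Control. In this gene too the groups were apart, but narrowly, with miR-128 replicate 2 just below miR-Control replicate 3. Its log2 fold change was -0.25 (SE 0.10, 95% interval -0.49 to -0.0088). In limma the unadjusted p was 0.0436 and the adjusted p 0.683, and 9 of 14 fits gave an unadjusted p under 0.05. The lowest of all 6 arrays was miR-128 replicate 1 in Map1b, Gap43 and Stmn3 alike. Its relative Stmn2, a stathmin of growing and regenerating axons, had 4.89, 5.14 and 4.98 in miR-128, against 4.78, 5.21 and 4.98 in miR-Control, with the groups fully overlapping and a log2 fold change of 0.02 (95% interval -0.29 to 0.32). The difference between the stathmins was not tested.

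The starts of Map1b and Stmn3 are shown as the 2 of these 3 genes found in the RefSeq promoter table of GRCm38.p6, which held 45 windows for 30 of the members. Each window runs from 250 bases before to 50 bases after the annotated start, Map1b at chr13:99516553-99516852 and Stmn3 at chr2:181314451-181314750, both on the minus strand and printed 5′ to 3′ along the gene. Capitals mark CAGATG, a sequence of the E-box kind bound by Neurod and related factors, searched on both strands and chosen after the values were seen.
Map1b: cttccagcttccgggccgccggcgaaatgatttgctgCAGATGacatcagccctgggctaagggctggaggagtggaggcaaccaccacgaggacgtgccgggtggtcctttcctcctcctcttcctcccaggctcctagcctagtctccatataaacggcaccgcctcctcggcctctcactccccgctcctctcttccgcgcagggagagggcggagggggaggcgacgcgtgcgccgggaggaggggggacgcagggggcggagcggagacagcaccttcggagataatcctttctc
Stmn3: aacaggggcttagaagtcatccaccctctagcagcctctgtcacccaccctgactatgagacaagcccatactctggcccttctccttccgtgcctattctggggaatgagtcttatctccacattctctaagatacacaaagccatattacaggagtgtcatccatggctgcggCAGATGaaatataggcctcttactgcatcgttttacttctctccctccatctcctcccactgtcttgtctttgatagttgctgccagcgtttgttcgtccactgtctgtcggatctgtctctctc
CAGATG was present once in each, and in 11 of the 45 member windows (24.4%), of 8 genes, beside 17.2% of all 32851 windows. Windows of 1 gene can overlap, so these are not independent, and a match is a description of letters only.

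Mapt, which encodes the axonal microtubule protein tau, had higher values with miR-128; it is described because its interval passed 1.5-fold, a choice made after its values were seen. It had 9.24, 8.77 and 8.95 in miR-128, against 8.72, 8.79 and 8.46 in miR-Control. The groups overlapped, with miR-128 replicate 2 just below miR-Control replicate 2. The log2 fold change was 0.33 (SE 0.15, 95% interval -0.01 to 0.67, adjusted p = 0.710 in limma), and it was 0.23 without miR-Control replicate 3, the lowest array. In 7 of 14 fits the unadjusted p was under 0.05, with log2 fold changes from 0.20 to 0.44. Its other row, which is not an independent measurement, gave 0.32 (unadjusted p = 0.0451), with every miR-128 array above the controls.

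Map2, the microtubule-associated protein of dendrites, was among the steadiest members. It had 12.69, 12.53 and 12.58 in miR-128, against 12.54, 12.50 and 12.56 in miR-Control, with overlapping groups. Its log2 fold change of 0.06 had a 95% interval from -0.16 to 0.29. The neurofilament subunits Nefl, Nefm and Nefh had log2 fold changes of -0.08, -0.06 and 0.08, with unadjusted p from 0.419 to 0.642. Ina, which joins neurofilaments as alpha-internexin, was at -0.16, and the neuronal tubulin Tubb3 at -0.09.

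**Figure D2:**
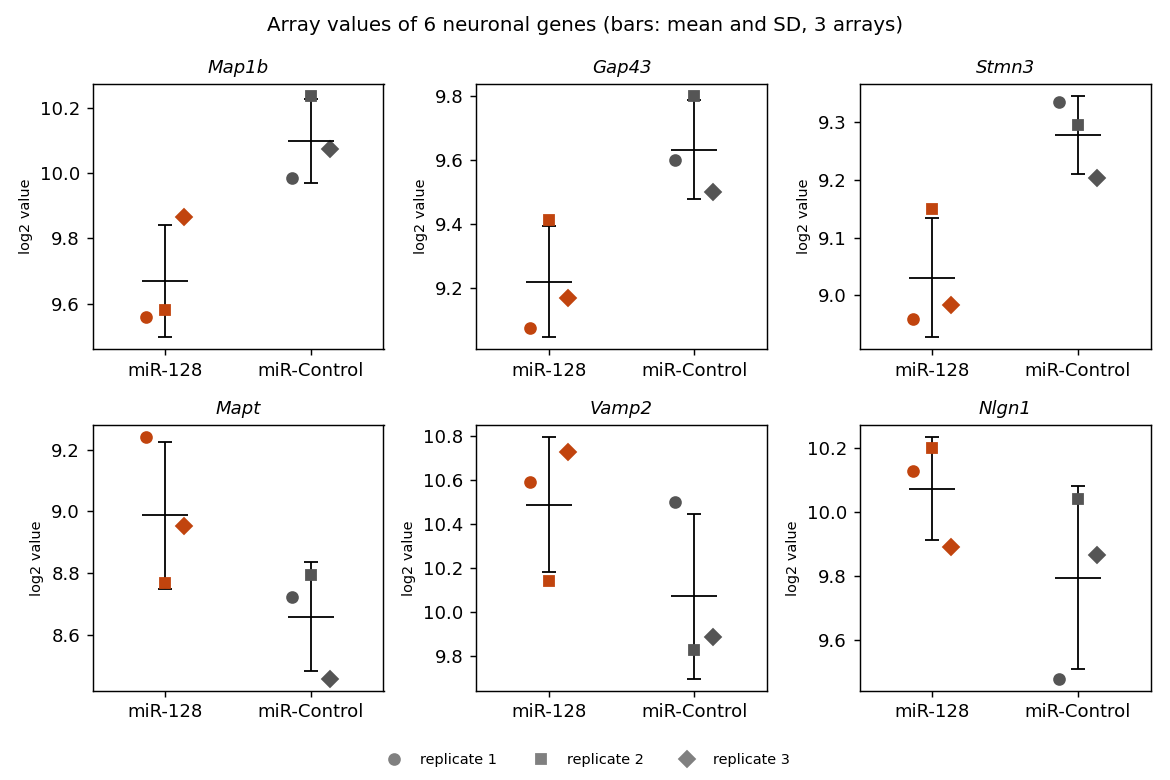
Log2 values (y axis, a separate scale in each panel that does not start at 0) of 6 neuronal genes in the 3 miR-128 and 3 miR-Control arrays, with mean and SD as bars and replicate number as symbol. The groups are apart in Map1b, Gap43 and Stmn3 and overlap in Mapt, Vamp2 and Nlgn1.

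The RNA-binding proteins and transcription factors of neurons showed no gene of unadjusted p under 0.05 and no gene whose groups were apart. Of the 8 genes 6 had lower and 2 higher values, beside 56.8% of all rows higher. Their log2 fold changes lay between -0.14 and 0.14, with a median of -0.015 that was 0.0087 without miR-Control replicate 3. Neurod6, a bHLH factor of cortical excitatory neurons, had 5.06, 5.001 and 4.92 in miR-128, against 4.99, 5.03 and 5.40 in miR-Control. A single control, replicate 3, lay above the other arrays, and the log2 fold change of -0.14 (SE 0.13, adjusted p = 0.928 in limma) was -0.02 without it. Elavl4, one of the neuronal ELAV proteins that stabilise transcripts, had 8.78, 8.55 and 8.62 in miR-128, against 8.42, 8.79 and 8.31 in miR-Control, and a log2 fold change of 0.14 (95% interval -0.18 to 0.47). Elavl2, of the same family, had 9.18, 9.16 and 8.98 in miR-128, against 8.95, 9.48 and 9.17 in miR-Control, and -0.10 (95% interval -0.43 to 0.23). In both ELAV genes the miR-128 arrays lay within the range of the controls. The layer factors Tbr1 and Bcl11b were at -0.01 and -0.02, and Elavl3 at 0.02.

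Neurod1 and Neurod2, bHLH factors that drive neuronal differentiation, had even levels in miR-128 and wide ones in miR-Control. Neurod1 had 7.75, 7.72 and 7.75 in miR-128, against 7.69, 8.20 and 7.36 in miR-Control, and Neurod2 had 7.005, 7.19 and 7.06 in miR-128, against 6.97, 6.85 and 7.64 in miR-Control. The miR-Control replicate 3 array was the lowest of all for Neurod1 and the highest for Neurod2. It differed from the mean of the other controls by -0.59 in Neurod1 and by 0.74 in Neurod2. The log2 fold changes were -0.01 and -0.07 with all arrays, and -0.21 and 0.18 without that array, with unadjusted p of 0.222 and 0.125.

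Synaptic genes had higher values with miR-128 in 7 of 9 members and lower values in 2, beside 56.8% of all rows higher. Their median log2 fold change was 0.12, and 0.061 without miR-Control replicate 2, and none had an unadjusted p under 0.05 in the main fit. Vamp2, the SNARE protein of the vesicle membrane, had 10.59, 10.14 and 10.73 in miR-128, against 10.50, 9.83 and 9.89 in miR-Control. Both groups were split: 1 control lay with the upper miR-128 arrays and miR-128 replicate 2 lay nearer the lower controls. The difference was 0.42 (SE 0.21, 95% interval -0.06 to 0.89, adjusted p = 0.756 in limma), and it moved between 0.29 and 0.63 when arrays were left out in turn. The higher value was that without miR-Control replicate 1 (unadjusted p = 0.00761 and adjusted p = 0.547 in limma). Under array weights the difference was 0.21 (unadjusted p = 0.318 in limma), the lowest of the 14 fits of Vamp2. In 3 of 14 fits its unadjusted p was under 0.05.

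Nlgn1, a postsynaptic adhesion protein that binds neurexins, had 10.13, 10.20 and 9.89 in miR-128, against 9.48, 10.04 and 9.87 in miR-Control. The groups overlapped, and miR-Control replicate 1 was the lowest array. The difference of 0.28 (SE 0.16, adjusted p = 0.801 in limma) was 0.12 without that array. It was 0.40 without miR-Control replicate 2 and 0.45 under array weights (unadjusted p = 0.0375 and 0.0143). Its other row gave 0.14, the widest distance between rows of any member. Syt1, the calcium sensor of vesicle release, had 5.71, 5.73 and 5.75 in miR-128, against 5.53, 5.44 and 5.85 in miR-Control. Its difference was 0.12 with all arrays and 0.25 without miR-Control replicate 3, the highest array (unadjusted p = 0.353 and 0.0275).

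The other synaptic genes stayed within small differences whose intervals all held 0. The synapsins Syn1 and Syn2, which tether vesicles, were at 0.11 and 0.19, and the vesicle protein Syp at 0.13. The SNARE genes of the target membrane, Snap25 and Stx1a, were at -0.01 and 0.02. Dlg4, the postsynaptic scaffold, was at -0.03, with 9.93, 9.84 and 10.36 in miR-128, against 10.12, 10.05 and 10.05 in miR-Control.

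Among the transmitter genes 6 of 9 had higher and 3 lower values with miR-128, beside 56.8% of all rows higher. They ran from -0.21 to 0.19, with a median of 0.04 and no unadjusted p under 0.05 in the main fit. Gria2, the AMPA receptor subunit that limits calcium entry, had 10.86, 11.14 and 10.50 in miR-128, against 10.95, 11.08 and 11.11 in miR-Control. Only miR-128 replicate 3 lay well below the rest. The log2 fold change was -0.21 (SE 0.16, 95% interval -0.58 to 0.15, adjusted p = 0.894 in limma), and its 3 rows lay between -0.30 and -0.21. Leaving that low array out gave -0.047, and leaving out miR-128 replicate 2, the highest of all, gave -0.37 (unadjusted p = 0.0391). Slc17a6, a vesicular glutamate transporter, had 5.43, 5.55 and 5.53 in miR-128, against 5.07, 5.44 and 5.43 in miR-Control, with a log2 fold change of 0.19 (SE 0.13, adjusted p = 0.866 in limma). Here miR-Control replicate 1 was the array that stood low, and the difference was 0.067 without it and 0.29 under array weights (unadjusted p = 0.0312).

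The remaining transmitter genes all had intervals that held 0. Gad1 and Gad2, which make GABA, were at 0.04 and 0.08, and Slc32a1, which loads it into vesicles, at -0.06. The glutamate transporter Slc17a7 was at 0.08, the AMPA subunit Gria1 at 0.11, and the NMDA subunits Grin1 and Grin2b at 0.04 and -0.01. Without miR-Control replicate 3 Slc17a7 was at 0.24 (unadjusted p = 0.0309), since that array had 7.22 against 6.77 and 6.70 in the other controls and 6.95, 7.02 and 6.96 in miR-128.

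All 4 adhesion and guidance genes had higher values with miR-128, beside 56.8% of all rows, by 0.03 to 0.15. Their median was 0.06, and 0.13 without miR-Control replicate 3. Only Ncam1 of the 4 lay above the level of the table's median row. Ncam1, the neural cell adhesion molecule, had 11.04, 10.91 and 11.03 in miR-128, against 10.74, 10.91 and 10.89 in miR-Control. The groups met at 10.91, and the log2 fold change was 0.15 (SE 0.10, adjusted p = 0.877 in limma), with 0.14 to 0.21 over its 3 rows. Robo3, a guidance receptor of commissural axons, had 6.80, 6.84 and 6.81 in miR-128, against 6.68, 6.70 and 6.88 in miR-Control, and a log2 fold change of 0.07 (95% interval -0.17 to 0.30). L1cam, an axonal adhesion molecule, had 6.39, 6.39 and 6.34 in miR-128, against 6.28, 6.25 and 6.50 in miR-Control. Its log2 fold change was 0.03, and 0.0037 after median centring. In Robo3, L1cam and the axonal contactin Cntn2 miR-Control replicate 3 was the highest of the 6 arrays.

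**Figure D3:**
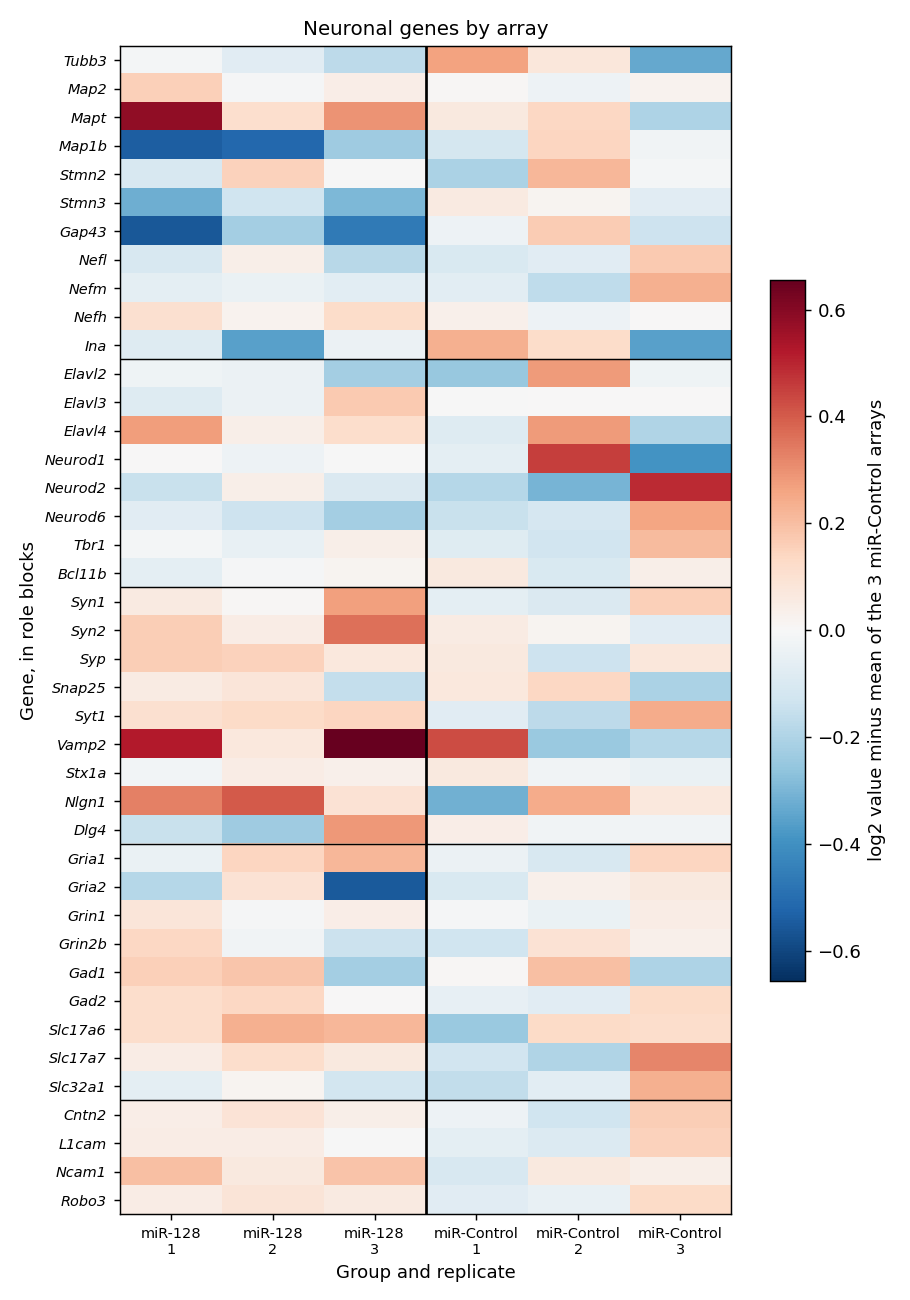
Log2 value of each neuronal gene (rows, in blocks by role) on each array (columns, miR-128 left and miR-Control right), minus the mean of the gene's 3 miR-Control arrays. Map1b, Gap43 and Stmn3 are blue on all miR-128 arrays, and miR-Control replicate 3 is red for many genes of low level and blue for Tubb3, Ina and Neurod1.

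How the array that stood apart deviated differed with the level of the row. The median row of the table had a mean of 7.46, and 20 members lay at or below it and 21 above. Replicate 3 of miR-Control was the highest of all 6 arrays in 11 of the 20 lower members (55%, beside 44.1% of all rows at or below the median) and in 0 of the 21 higher ones (beside 13.4% of all rows above it), and it was the lowest in 6 of those 21 (beside 32.3%). The SD over 3 arrays was larger in miR-Control than in miR-128 for 27 of 41 members (65.9%, beside 67.4% of all rows).

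Without miR-Control replicate 3 the counts changed, and the calls did not. With 3 miR-128 and 2 miR-Control arrays, 0 members passed adjustment in limma, and 7 of 41 (17.1%, beside 12.4% of all rows) had an unadjusted p under 0.05. Of these, 5 were lower, Gap43 (-0.48), Map1b (-0.44), Ina (-0.33), Stmn3 (-0.28) and Tubb3 (-0.25), beside 5.84% of all rows, and all 5 were cytoskeletal. The 2 higher ones, beside 6.59% of all rows, were Syt1 (0.25) and Slc17a7 (0.24). Both lay at or below the level of the median row, as did Tubb3. Of the 20 members at or below that level 17 were higher without the array, with a median of 0.089. Of the 21 above it 12 were higher, with a median of 0.00025. Ina and Tubb3 had their lowest value on the array left out: Ina had 7.97, 7.70 and 8.02 in miR-128, against 8.29, 8.18 and 7.70 in miR-Control, and Tubb3 had 7.03, 6.96 and 6.87 in miR-128, against 7.30, 7.11 and 6.70 in miR-Control. The 3 genes of the main fit kept an unadjusted p under 0.05. The median log2 fold change of the members was 0.06 without the array, beside 0.05 over all rows.

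**Figure D4:**
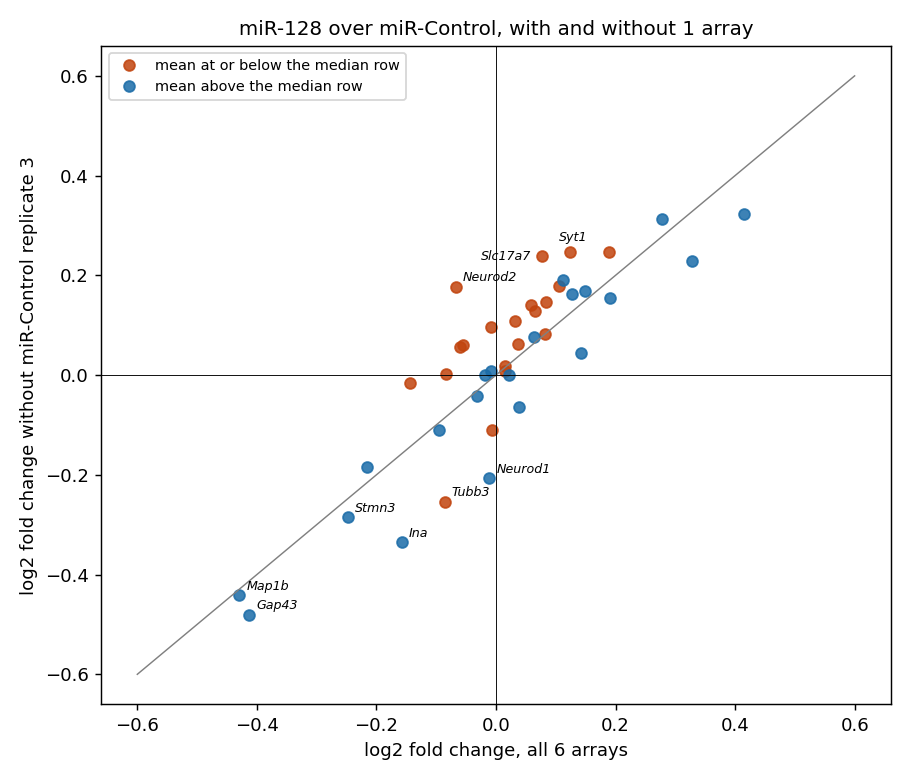
Log2 fold change of each neuronal gene, miR-128 over miR-Control, with all 6 arrays (x axis) and without miR-Control replicate 3 (y axis); the diagonal marks equal values and colour the gene's level. Map1b, Gap43 and Stmn3 stay near the diagonal, while Neurod2 and Slc17a7 lie above it and Tubb3, Ina and Neurod1 below it.

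Several transcript rows of a gene gave like values. The 41 members had 61 rows, and 12 had more than 1 distinct row, none of which had rows of both signs. Dlg4 and Grin1 had rows with identical values, so rows of 1 gene cannot be taken as independent measurements, and their like signs are a description only. The widest distance between the log2 fold changes of rows of 1 gene was 0.14.

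Further genes of the same roles, 104 of 105 on lists drawn up beside the members, gave the wider setting. None passed adjustment in limma, and 13 (12.5%) had an unadjusted p under 0.05, 11 higher and 2 lower with miR-128, beside 7.15% of all rows (4.04% higher and 3.11% lower). Of the 104 genes 63.5% had a positive log2 fold change, beside 56.8% of all rows, and the median was 0.04. Without miR-Control replicate 3 the median was 0.08, and 18 (17.3%) had an unadjusted p under 0.05, beside 12.4% of all rows. As the lists were drawn up with earlier results known, these shares are descriptions only. The other cytoskeletal genes were lower in 13 of 21, and 1 had an unadjusted p under 0.05: Tuba1a, the main neuronal alpha-tubulin, had 12.95, 13.26 and 12.75 in miR-128, against 13.37, 13.27 and 13.34 in miR-Control, a log2 fold change of -0.34 (adjusted p = 0.665 in limma), with the nearest arrays almost touching. Map6, a protein that stabilises microtubules, was at -0.27 (unadjusted p = 0.0764). Among 18 other neuronal regulators the RNA-binding protein gene Celf4 was at -0.35 (unadjusted p = 0.00863) and the interneuron factor Dlx5 at 0.27 (unadjusted p = 0.0226).

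Of 28 further synaptic genes 22 had higher values, beside 56.8% of all rows. Of these 22, 4 had an unadjusted p under 0.05, beside the 4.04% of all rows that were higher at that p. Nrxn3, a presynaptic neurexin, had 8.26, 7.95 and 8.06 in miR-128, against 7.59, 7.60 and 7.57 in miR-Control. It was the gene of smallest p on these lists, with a log2 fold change of 0.50 (SE 0.11, adjusted p = 0.380 in limma), and no array of one group reached the other. Syt11, a synaptotagmin, was at 0.46 (adjusted p = 0.391). Of 25 further transmitter genes 14 were higher, beside 56.8% of all rows. The vesicular transporter gene of acetylcholine, Slc18a3, was at 0.29 and that of monoamines, Slc18a2, at 0.25. Their unadjusted p in limma was 0.0236 and 0.0376, and their adjusted p 0.615 and 0.665. Both had means, 5.71 and 6.26, below the 7.46 of the table's median row.

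Of 12 further adhesion and guidance genes 11 had higher values, with a median of 0.23, and 4 had an unadjusted p under 0.05, all of them higher. The all-row shares to set these beside are 56.8% positive and 4.04% higher at that p. Nrcam, a relative of L1cam, had 9.79, 9.67 and 9.59 in miR-128, against 9.24, 9.31 and 9.10 in miR-Control, a log2 fold change of 0.47 (SE 0.11, adjusted p = 0.391 in limma). Cntn1, a relative of Cntn2, had 9.31, 9.29 and 9.34 in miR-128, against 8.67, 9.10 and 8.83 in miR-Control, and 0.45 (SE 0.13, adjusted p = 0.470 in limma). In both the miR-128 arrays lay above all controls, as they did in 6.98% of all rows, while in L1cam and Cntn2 the groups overlapped.

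Markers of other cells were read beside these genes, and their part in the values above was not tested. None of the markers passed adjustment in limma, and their lowest adjusted p was 0.456. The median log2 fold change of all rows was 0.02, and 0.05 without miR-Control replicate 3. The all-row shares to set the marker lists beside are 56.8% positive, and 4.04% higher and 3.11% lower at an unadjusted p under 0.05 in limma. Of 5 measured cycling cell genes 4 were lower with miR-128, 2 of them at that p. These 2 were Mki67 at -0.33 and Cdk1 at -0.34, with every miR-128 array lower, as in 4.87% of all rows. The mean level of the 5 lay between 10.61 and 10.76 in miR-128 and between 10.60 and 10.96 in miR-Control, where replicate 3 was the lowest. The median of these 5 was -0.11 with all arrays and -0.29 without miR-Control replicate 3. Without that array 5 of 5 were lower and 3 had an unadjusted p under 0.05, beside 5.84% of all rows lower at that p. Of 6 astrocyte markers 5 were higher, with list means from 8.17 to 8.22 in miR-128 and from 7.99 to 8.08 in miR-Control. At an unadjusted p under 0.05 with all arrays, 2 of them were higher and 1, Gja1, was lower. Of 8 markers of the oligodendrocyte lineage 7 were higher, with means from 8.68 to 8.82 in miR-128 and from 8.46 to 8.58 in miR-Control. At that p 3 of them were higher and 0 lower. The neural stem cell list had 5 of 10 higher, with means from 10.31 to 10.41 in miR-128 and from 10.34 to 10.41 in miR-Control. At that p 1 gene of this list, Fabp7, was lower, and the 2 lists named next had 0. Microglia markers were higher in 6 of 6, by a median of 0.05, with means from 6.12 to 6.14 in miR-128 and from 6.03 to 6.11 in miR-Control, and vascular and mesenchymal markers in 5 of 7, also by a median of 0.05, with means from 6.95 to 7.04 in miR-128 and from 6.87 to 7.10 in miR-Control. Without miR-Control replicate 3 the median log2 fold change was 0.20 for the astrocyte, 0.27 for the oligodendrocyte and 0.014 for the stem cell list, against 0.15, 0.24 and 0.019 with all arrays, and 0.08 for the microglia and 0.09 for the vascular and mesenchymal list.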

How the data were processed

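The deposited table held log2 values that the authors made by RMA; the submitters' processing notes name RMA and affy without versions. RMA corrects background, equalises arrays and summarises probes, and tends to shrink fold changes; no scanner files or detection calls were used here, so signal over background is unknown. Row accessions were matched without versions to the RefSeq table of GRCm38.p6, for names only: 25343 of 32025 rows were named. The labels call the replicates biological without naming separate cultures or animals, so p-values measure only the spread between these samples.

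limma 3.58.1 in R 4.3.3 (lmFit, eBayes, prior of 4.74 degrees of freedom) was fitted on all rows and 6 arrays, unpaired, two-sided, with no filter, adjusted by Benjamini-Hochberg at a threshold of 0.05; it was tested on simulated data. Every fold change sets miR-128 over miR-Control. Members and lists were chosen with earlier results of these data known. Given array by array are, per role, the 2 members of smallest p, the members of highest and lowest mean and those whose groups do not overlap, and, chosen after their values were seen, Mapt, Neurod1, Neurod2, Dlg4, Slc17a7, Ina and Tubb3. Of the further lists, the 2 genes of smallest p each are named. The labels name no shared litter, batch or day, so replicates were not paired. Deviations of same-numbered replicates from their group means had correlations of -0.0028, 0.17 and 0.05. With 3 arrays a group these cannot settle whether replicates were paired. Alternatives were leaving out each array, a replicate block, quantile normalization, median centring, rows above the median, an intensity trend, array weights and averaging a gene's distinct rows. A search for miR-128 seed matches in transcripts was not made.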

Additional observations from a re-analysis of the deposited data

How the results depend on the processing

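No member passed adjustment in limma in any of the 13 alternatives. Over all rows 0 passed in the main fit, and 4 passed among rows above the median level and 24 under array weights. The members' median log2 fold change of 0.022 turned sign, to -0.0044, after quantile normalization and, to -0.0058, after median centring, where the medians of all rows were 0.00084 and -0.0057. It was 0.069 under array weights, and 0.023 to 0.061 over the fits that left out 1 array, the highest being without miR-Control replicate 3. With the replicate number as a block, 4 members had an unadjusted p under 0.05, 2 higher (Mapt and Vamp2) and 2 lower (Map1b and Gap43), against 3 lower without it, and the block changed no adjusted call. There were 3 higher and 4 lower under array weights, and 2 higher and 4 lower without miR-128 replicate 2. Signs turned in 3 of the 16 genes named by rule, all close to 0: Stmn2 was at -0.012 after quantile normalization and at -0.013 after median centring, Elavl2 was at 0.027 under array weights, and L1cam was at -0.020 after quantile normalization. Leaving out 1 array moved Stmn2 between -0.088 and 0.12, Elavl2 between -0.22 and 0.042 and L1cam between -0.013 and 0.11. The cytoskeletal median of -0.08 was -0.044 when miR-128 replicate 3 was left out, 0.00119 when miR-Control replicate 3 was, -0.013 under array weights, -0.13 after quantile normalization and -0.20 among rows above the median level. The causes were not tested. With 3 arrays a group, precision is limited by their number.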
